A study of Homo sapiens with 4 samples.

Results

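The 39 HOX genes of the HOXA, HOXB, HOXC and HOXD clusters were followed in RNA-seq of a pancreatic cancer cell line and of a clone of it with less histone H2A.Z. Members were all genes whose symbol in the deposited table is HOX, a cluster letter and a number, 39 of the 24925 genes listed there. The rule used no measured value. Of the 39 members, 24 had a value in every library and 15 had no value per library. PANC-1 (Wild type) is an untransduced pancreatic adenocarcinoma line. PZT-2 (knockdown of the H2A.Z isoforms) is a single clone selected from PANC-1 cells that carry lentiviral short hairpin RNAs, driven by the U6 promoter, against H2A.Z.1 and against both H2A.Z.2 isoforms. Both lines were grown in the same medium with serum and taken at the same passages, and each gave 2 libraries. The authors selected transduced cells with puromycin and kept the clones PZT-1 and PZT-2 for low H2A.Z and low proliferation. They sequenced PZT-2 because its senescent phenotype was the stronger one. The paper reports that most of the depleted cells were arrested in G2/M. The study also sequenced cells with a scrambled hairpin. The paper reports that their phenotype resembled that of PANC-1. It also reports similar differing genes whether PZT-2 was compared with them or with PANC-1. The cells with the scrambled hairpin are not analysed here. The knockdown, the transduction, the puromycin selection, the choice of 1 clone and its senescent, arrested state therefore cannot be told apart. The paper's figure legends call the 2 libraries of a line biological replicates. Nothing in the labels says that they came from separate cultures, so p-values measure the spread between these libraries only.

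HOX genes encode homeodomain transcription factors that give cells their place along the body axis. They lie side by side in clusters on separate chromosomes, and genes at the same place in different clusters, called a paralog group, descend from a common ancestor and are more alike than neighbours within a cluster. Low paralog groups act towards the head and high groups towards the tail and the limb ends. Their proteins bind DNA together with cofactors of the PBX and MEIS families, retinoic acid and CDX proteins act on the clusters in the embryo, and trithorax and Polycomb complexes keep a cluster active or silent in the adult cell.

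The recovered counts came to between 12861479 and 15717575 per library. H2AFZ, which encodes H2A.Z.1, was lower in PZT-2 (log2 fold change -1.47, edgeR adjusted p = 6.29e-05), and H2AFV, which encodes H2A.Z.2, was lower too (-0.36, adjusted p = 0.00567). The ductal keratins KRT8, KRT18 and KRT19 were at 1141 to 3128 TPM and SOX9 at 66.6 to 84.4 TPM. KRT8, KRT18 and KRT19 were called lower in PZT-2, SOX9 was called higher, and KRT7, at 7.94 to 11.0 TPM, was not called. The 4 acinar markers, INS, GCG, CHGA, COL1A2, DCN, LUM, CDH5, VWF, PTPRC and CD3E had no value. Of the neuroendocrine, endothelial and leukocyte markers only SYP, PECAM1 and CD68 had values, none of them called. SYP was at 6.63 to 7.91 TPM, PECAM1 at most at 0.236 TPM and CD68 at 114 to 122 TPM. Of 5 fibroblast markers only COL1A1 and PDGFRB had values, and their summed level was 10.7 and 11.6 TPM in PANC-1 and 3.94 and 3.14 TPM in PZT-2. COL1A1 was called lower (-1.75, adjusted p = 0.000465), while PDGFRB was at 0.55 and was not called. The part of that difference in the HOX values was not tested. In bulk RNA, fewer cells that express a gene and less RNA of it per cell cannot be told apart.

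Levels were compared between members per transcript length, as TPM (abundance per transcript length, with the scaling the authors left in their table). The HOXB cluster, on chromosome 17, held most of the HOX signal. Its members summed to 405 and 373 TPM in PANC-1 and to 404 and 401 TPM in PZT-2. The HOXC cluster, on chromosome 12, came next with 215 and 212 TPM in PANC-1 and 163 and 161 TPM in PZT-2. For HOXC the PZT-2 sums were the lower ones without overlap, while the HOXB sums of the 2 lines overlapped as deposited. The HOXA cluster, on chromosome 7, summed to between 18.8 and 20.3 TPM in the 4 libraries. The HOXD cluster, on chromosome 2, was represented by HOXD4 alone, at 1.21 and 0.882 TPM in PANC-1 and at 0 and 0.212 TPM in PZT-2. As a share of all HOX TPM, HOXC made up 33.6% and 35.0% in PANC-1 and 27.7% and 27.6% in PZT-2. The overlap of HOXB depended on the scaling, since the deposited TPM do not add up to the same total in each library. Rescaled to equal totals, HOXB summed to 405 and 382 TPM in PANC-1 and to 429.8 and 425 TPM in PZT-2, higher in PZT-2 without overlap, while HOXC remained lower at 173 and 170.4 TPM against 215 and 217. No test was run on the sums, and with 2 against 2 libraries a two-sided exact permutation test could not give less than p = 0.333.

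The most abundant members in PANC-1 were HOXB7 (88.3 ± 0.985 TPM, SD, n = 2), HOXB6 (84.6 ± 8.10) and HOXC10 (77.7 ± 3.62). HOXB7 and HOXB6 changed places between the PANC-1 libraries (87.6 against 90.3 TPM in replicate 1, 89.0 against 78.9 in replicate 2), so their order was not resolved. HOXC10 was below both of them in each PANC-1 library, at 80.3 and 75.2 TPM. HOXB5, HOXB2 and HOXB9 followed at 47.3 ± 6.11, 45.7 ± 0.336 and 44.0 ± 11.8 TPM, with overlap from each gene to the next. In all, 10 members were above 20 TPM in every library, all of them in HOXB or HOXC. Of the 23 pairs of members next to each other in the PANC-1 order, 13 overlapped between their libraries. In PZT-2, HOXB7 and HOXB6 stood at 92.6 ± 5.96 and 88.6 ± 1.00 TPM, and HOXC10 at 50.8 ± 2.05 TPM. The ratio of HOXC10 to HOXB6 within a library was 0.889 and 0.953 in PANC-1 and 0.585 and 0.561 in PZT-2. That ratio does not depend on how libraries are scaled, and its values in the 2 lines did not overlap. It restates the lower HOXC10 values and is no separate measurement.

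The 15 members without a value were HOXA4, HOXA7, HOXA9, HOXA10 and HOXA13, HOXB1, HOXC12, and HOXD1, HOXD3 and HOXD8 to HOXD13. Every transcript that does have values reached at least 5 counts in at least 1 library, so the table may leave out genes with a few counts, and no upper limit is given for these 15. The gaps differed by cluster, with 8 of 9 HOXD genes, 5 of 11 HOXA genes, 1 of 10 HOXB genes and 1 of 9 HOXC genes missing. In paralog groups 2, 5 and 6 every gene had values, whereas in group 12 no gene did and in group 10 only HOXC10 did.

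The comparison of PZT-2 with PANC-1 describes gene expression in a transduced clone with less H2A.Z, a histone variant found at promoters and enhancers. Of the 24 members tested with edgeR's quasi-likelihood test, 6 were lower in PZT-2 at an adjusted p under 0.05, namely HOXC4, HOXC6, HOXC10, HOXC11, HOXC13 and HOXD4. HOXD4 met the count filter through its PANC-1 libraries alone, so the filter set its direction in advance. DESeq2 called 4 members lower. No member was called higher, with 1 member higher at an unadjusted p under 0.05 and none called higher by DESeq2. Over all 15104 genes tested, 13.6% were called lower and 14.7% higher, and DESeq2 called 1553 lower and 1668 higher. In HOXC, 5 of 8 genes with values were called lower. None of the 6 HOXA genes was called, with 0 at an unadjusted p under 0.05 and 0 by DESeq2, and none of the 9 HOXB genes, with 1 and 0. The median log2 fold change was -0.49 over the HOXC genes, 0.08 over the HOXB genes and -0.06 over the HOXA genes, against 0.00 over all genes tested and -0.04 over the 772 genes tested on chromosome 12. The 2 lines did not overlap for 12 of the 24 members, 7 being lower and 5 higher in PZT-2, against 32.9% and 33.3% of all genes tested.

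**Figure D1:**
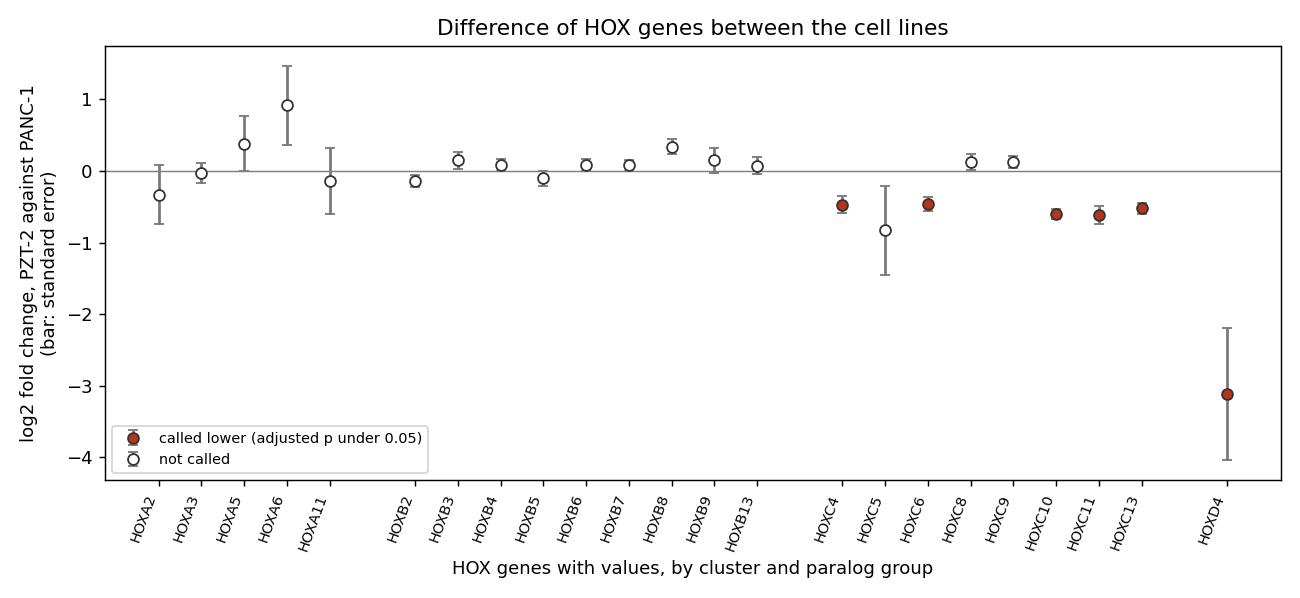
Log2 fold change of PZT-2 against PANC-1 for the HOX genes with values, by cluster and paralog group. Bars are standard errors derived from the F statistic of edgeR's test. Filled points are the 6 genes called lower, 5 in HOXC and HOXD4, and open points were not called.

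Among the posterior HOXC genes, HOXC10, which acts in motor neurons of the lumbar cord and in the hindlimb, had 1215 and 1131 normalized counts in PANC-1 and 794 and 752 in PZT-2. Both PZT-2 libraries were well below both PANC-1 libraries, and the log2 fold change was -0.60 (SE 0.0722, adjusted p = 0.00216). HOXC13, needed for hair and nail formation, had 645 and 639 normalized counts in PANC-1 and 438 and 459 in PZT-2 (log2 fold change -0.52, SE 0.0762, adjusted p = 0.00434). Its replicates lay close together in each line and the lines did not overlap. HOXC11, a posterior gene of the hindlimb and tail region, had 236 and 254 in PANC-1 and 150.0 and 170.1 in PZT-2 (log2 fold change -0.62, SE 0.122, adjusted p = 0.0122). The 3 genes were thus at 65.3% to 69.9% of their PANC-1 means. Without PZT-2 replicate 1, HOXC11 was no longer called (adjusted p = 0.0772), while HOXC10 and HOXC13 were called in the 15 alternatives that changed the counts, the libraries or the fit. Neither reached a 2-fold difference, so both fell out when that was required as well.

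Beside these, HOXC9 and HOXC8 did not follow the same direction. HOXC9, which sets the thoracic identity of motor neurons, had 353 and 372 normalized counts in PANC-1 and 403 and 391 in PZT-2 (log2 fold change 0.13, SE 0.0869, adjusted p = 0.329). HOXC8, which acts in motor neurons at the level of the forelimb, had 183 and 196 in PANC-1 and 205 and 211 in PZT-2 (log2 fold change 0.13, SE 0.112, adjusted p = 0.437). For both genes the PZT-2 libraries were slightly above the PANC-1 libraries and neither difference passed the test. Within a library, the ratio of HOXC10 to HOXC9 in TPM was 2.54 and 2.24 in PANC-1 and 1.45 and 1.42 in PZT-2. The ratio of HOXC6 to HOXC8 on the other side was 2.83 and 2.43 in PANC-1 and 1.84 and 1.66 in PZT-2. Each ratio sets a called gene over an uncalled one, so it restates the calls and is no separate evidence. In cluster order the called genes HOXC13, HOXC11 and HOXC10 were therefore separated from the called genes HOXC6 and HOXC4 by a pair of genes that were not called.

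**Figure D2:**
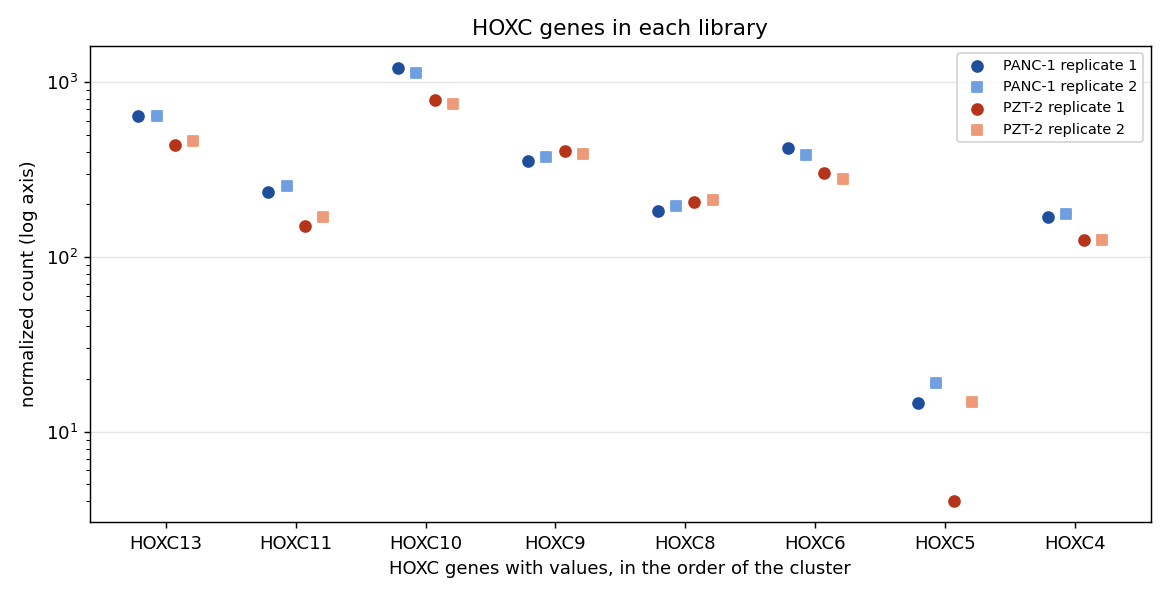
Normalized counts (log axis) of the 8 HOXC genes with values, in the order of the cluster, with 1 point per library. The PZT-2 points (red) lie below the PANC-1 points (blue) for HOXC13, HOXC11, HOXC10, HOXC6 and HOXC4, and slightly above them for HOXC9 and HOXC8, while the HOXC5 points overlap.

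At the anterior end, HOXC6, a gene of the thoracic region, had 421 and 385 normalized counts in PANC-1 and 304 and 279 in PZT-2 (log2 fold change -0.47, SE 0.0999, adjusted p = 0.0161). HOXC4, the member of the cluster that acts closest to the head, had 169.9 and 175 in PANC-1 and 125 and 125 in PZT-2 (log2 fold change -0.47, SE 0.123, adjusted p = 0.0323). In both genes the lines did not overlap, and PZT-2 was at 72.3% and 72.2% of the PANC-1 mean. The HOXC6 call was lost without PZT-2 replicate 2 (adjusted p = 0.103), and the HOXC4 call with DESeq2 (adjusted p = 0.21) and when PANC-1 replicate 2 (0.0725) or PZT-2 replicate 1 (0.134) or 2 (0.151) was left out, with negative values throughout. HOXC5, which lies between them, had few counts, with 14.6 and 19.0 in PANC-1 and 4.03 and 14.8 in PZT-2. Its libraries overlapped between the lines (log2 fold change -0.83, SE 0.618, adjusted p = 0.371).

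HOXC4, HOXC5 and HOXC6 are special in that some of their transcripts start from a common exon. In GENCODE 29 the first exon of the HOXC4 transcript NM_014620 overlaps that of the HOXC6 transcript NM_153693 over 484 bases, and 30.4% of the 31-base words of the HOXC4 transcript occur in transcripts of other members. The HOXC5 transcript NR_003084 shares 305 bases of this exon. Estimated counts split reads of the common exon between the 3 genes, so their separate values are uncertain. The table gives NR_003084 no symbol, so the rule leaves it out of HOXC5. Added to it, as an alternative chosen after the data were seen, HOXC5 had 60.8 and 54.2 normalized counts in PANC-1 and 33.2 and 20.8 in PZT-2, without overlap, and was called lower (log2 fold change -1.09, adjusted p = 0.0384).

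Summed over the 3 transcripts with the common first exon, normalized counts were 366 and 354 in PANC-1 and 281 and 225 in PZT-2. Over the 3 transcripts of these genes with an exon of their own at the start (NM_153633, NM_004503 and NM_018953) they were 286 and 262 in PANC-1 and 179.8 and 198 in PZT-2. PZT-2 was at 70.3% of the PANC-1 mean for the first sum and at 69.0% for the second, so both estimated sums were lower. Shared sequence was checked only between genes. Reads common to forms of the same gene are divided between the sums by estimate, so the sums are not separate measurements. Among single transcripts, the HOXC4 form NM_014620 had 77.6 and 104 in PANC-1 and 85.4 and 75.9 in PZT-2, which overlap, while the HOXC4 form NM_153633 went from 92.2 and 71.7 to 39.2 and 47.3. The HOXC6 forms NM_153693 (242 and 215 against 167 and 143) and NM_004503 (179 and 172 against 137 and 136) did not overlap between the lines. None of the 28 member transcripts tested was called by edgeR over all 30403 transcripts, of which 0.148% were called. At an unadjusted p under 0.05 there were 4, and DESeq2 called 3 (those of HOXC10, HOXC11 and HOXC13), against 14.5% of all transcripts.

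**Figure D3:**
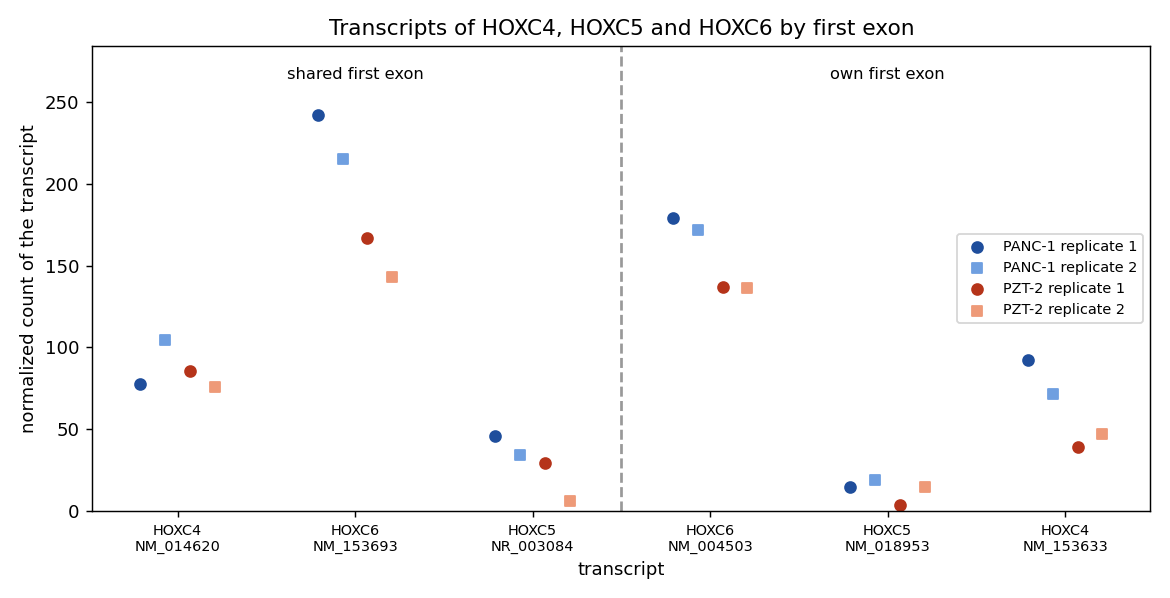
Normalized counts of each transcript of HOXC4, HOXC5 and HOXC6 in the 4 libraries, with the 3 transcripts that share the first exon on the left and the 3 with their own first exon on the right. The PZT-2 points (red) lie below the PANC-1 points (blue) for both HOXC6 transcripts, for HOXC4 NM_153633 and for NR_003084, and overlap with them for HOXC4 NM_014620 and HOXC5 NM_018953.

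HOXD4, an anterior gene of the hindbrain and neck, was the only HOXD gene with values. It had 10 and 9 counts in PANC-1 and 0 and 2 in PZT-2, or 11.3, 8.13, 0 and 1.98 when normalized. Only its PANC-1 libraries reached the 5 counts needed for testing, so a call could only be lower. The lines did not overlap, but the numbers were small. Over both libraries the ratio of PZT-2 to PANC-1 was 0.105, with a 95% exact interval of 0.0118 to 0.434 for counting error only. The fitted log2 fold change of -3.12 (SE 0.921, adjusted p = 0.0473) lay just inside the threshold. Its size turned on single libraries, being -2.21 when PZT-2 replicate 1 was left out and -6.28, with no PZT-2 count remaining and so no measure of size, when replicate 2 was. It was -0.89 by limma-trend on log2(TPM + 1). The call was lost with no filter on low counts (adjusted p = 0.0522), with the deposited values left as they were (0.0536) and without PZT-2 replicate 1 (0.128), and DESeq2 gave it no adjusted p.

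Promoter sequence from RefSeq on GRCh38.p14 was at hand for 2 of the 6 called members, HOXC4 and HOXD4, and is shown for these genes because TAAT is the core that homeodomain proteins themselves bind. The window for HOXC4 is also that of HOXC5, since RefSeq gives both the same start. In the 250 bases before the start, TAAT (either strand, overlapping matches counted) occurred 1 time for HOXC4 and 5 times for HOXD4, and 48.2% of 27305 promoters hold at least 1 in a window of this length. The 30 bases around the HOXC4 match, and around a pair of overlapping matches in HOXD4, are printed with TAAT or its reverse complement in capitals, at chr12:54016766-54016795 (plus strand) for HOXC4 and at chr2:176151374-176151403 (plus strand) for HOXD4. In GENCODE 29 both stretches lie within transcribed leader sequence, of HOXC6 transcript NM_153693 and of HOXD4.
HOXC4: atttacagctgagTAATaaaagtttacgat
HOXD4: gactggaactacATTAATatctggcagggg

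Neither 250-base window held TGATNNAT, a composite core bound by PBX with HOX proteins (in 6.69% of promoters), AGGTCA, the half-site of retinoic acid receptors (12.1%), or TTTATG, a core of CDX proteins (10.0%). Each was searched on both strands. The dinucleotide CG occurred 14 times for HOXC4 and 4 times for HOXD4, with a median of 11 over all promoters. A match of letters is a description and shows no binding.

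The HOXB genes, the most abundant set, showed no called difference. HOXB8, known for its effect on myeloid progenitors, came closest, with 321 and 369.6 normalized counts in PANC-1 and 463 and 414 in PZT-2. Both PZT-2 libraries were above both PANC-1 libraries, at a log2 fold change of 0.34 (SE 0.110, adjusted p = 0.0606). HOXB8 passed the threshold when only genes with at least 10 counts in every library were tested (adjusted p = 0.045) and without PANC-1 replicate 2 (0.0215).

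HOXB9, a thoracic gene, had 1088 and 737 normalized counts in PANC-1 and 1045 and 968 in PZT-2 (log2 fold change 0.15, SE 0.169, adjusted p = 0.566). Its PANC-1 libraries were far apart and enclosed those of PZT-2. The value therefore turned on PANC-1, being 0.44 and called without PANC-1 replicate 1 (adjusted p = 0.00448) and -0.12 without PANC-1 replicate 2 (0.319). HOXB7, a gene of the trunk, had 871 and 878 in PANC-1 and 882 and 967 in PZT-2 (log2 fold change 0.08, SE 0.0733, adjusted p = 0.468), with 1 PZT-2 library barely above PANC-1. HOXB6, its neighbour, had 1125 and 975 in PANC-1 and 1116 and 1101 in PZT-2 (log2 fold change 0.08, SE 0.0832, adjusted p = 0.522). HOXB6 and HOXB7 differed between the lines by less than the spread within PANC-1 for HOXB6 and within PZT-2 for HOXB7.

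Of the anterior HOXB genes, HOXB2, a hindbrain gene, had 545 and 535 normalized counts in PANC-1 and 472 and 506 in PZT-2 (log2 fold change -0.14, SE 0.0804, adjusted p = 0.243). It was the only HOXB gene with both PZT-2 libraries below PANC-1. HOXB3, also of the hindbrain, had 295 and 342 in PANC-1 and 378 and 330.3 in PZT-2 (log2 fold change 0.15, SE 0.118, adjusted p = 0.395). With 2 further HOXB3 transcripts that carry no symbol in the table, NM_001330322 and NM_001330323, the counts were 704 and 731 in PANC-1 and 739.8 and 711 in PZT-2 and the log2 fold change was 0.01 (adjusted p = 0.906).

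HOXB4, known for its effect on blood stem cells, had 552 and 502 normalized counts in PANC-1 and 565 and 549 in PZT-2 (log2 fold change 0.08, SE 0.0840, adjusted p = 0.521). HOXB5, a gene of gut nerve precursors, had 703 and 582 in PANC-1 and 615 and 578 in PZT-2 (log2 fold change -0.10, SE 0.107, adjusted p = 0.523). HOXB13, a posterior gene used as a prostate marker, had 169.9 and 192 in PANC-1 and 191 and 189.9 in PZT-2 (log2 fold change 0.07, SE 0.121, adjusted p = 0.703). For HOXB3, HOXB4, HOXB5 and HOXB13 the lines overlapped. HOXB13 lies apart from the rest of its cluster and was the least abundant HOXB gene with values, at 7.71 ± 0.682 TPM in PANC-1 and 8.05 ± 0.0558 in PZT-2 (SD, n = 2).

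The HOXA genes were low and none was called. HOXA3, needed for the thymus and parathyroid, had 154 and 187 normalized counts in PANC-1 and 173 and 162 in PZT-2 (log2 fold change -0.03, SE 0.141, adjusted p = 0.90). Its PANC-1 libraries enclosed those of PZT-2.

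HOXA2, which patterns the hindbrain and the branchial arches, had 25.9 and 59.6 normalized counts in PANC-1 and 35.2 and 33.6 in PZT-2 (log2 fold change -0.33, SE 0.410, adjusted p = 0.596). HOXA5, a lung gene, had 33.8 and 18.1 in PANC-1 and 31.2 and 35.6 in PZT-2 (log2 fold change 0.38, SE 0.382, adjusted p = 0.507). The PANC-1 libraries of each differed by more than the lines did. HOXA6 and HOXA11, each with at most 13 counts in a library, ranged from 3.38 to 9.89 and from 8.90 to 11.7 normalized counts and were not called (adjusted p = 0.270 and 0.860). Over both libraries of a line HOXA6 had 10 counts in PANC-1 and 19 in PZT-2, a ratio of 1.89 with a 95% exact interval of 0.837 to 4.55, so no difference was detectable at this depth.

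Noncoding RNAs encoded within the clusters were looked at next, 12 of a list of 28 symbols having values. HOXD-AS1, an earlier name of HAGLR, stands among the symbols without a value. HAGLR, transcribed from the HOXD cluster opposite to its genes, was the only RNA called, against 13.6% lower and 14.7% higher of all genes tested. It had 101 and 82.2 normalized counts in PANC-1 and 17.1 and 21.8 in PZT-2 (log2 fold change -2.23, SE 0.258, adjusted p = 0.00193), so that both PZT-2 libraries were far below. HOXD-AS2 of the same cluster, with 23.6 and 20.8 in PANC-1 and 8.05 and 11.9 in PZT-2, did not overlap either but was not called (-1.14, adjusted p = 0.0864).

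In the HOXC cluster, HOXC13-AS, beside HOXC13, had 162 and 155 normalized counts in PANC-1 and 116 and 126 in PZT-2 (-0.39, adjusted p = 0.0677). HOTAIR, which lies between HOXC11 and HOXC12 and is known to bind Polycomb proteins, had 120.4 and 138 in PANC-1 and 102 and 95.9 in PZT-2 (-0.39, adjusted p = 0.102). Neither was called, although the lines did not overlap for either. HOXC-AS1, HOXC-AS2 and HOXC-AS3, near HOXC9 and HOXC10, had between 13.6 and 28.1 normalized counts and log2 fold changes between -0.20 and 0.10. HOTAIRM1, from the HOXA cluster and the RNA of the list with the most counts, had 177 and 185 in PANC-1 and 178 and 193 in PZT-2 (0.03, adjusted p = 0.864). None of the 12 was called higher by edgeR or DESeq2, with 0 higher at an unadjusted p under 0.05. How the authors' counting treated strand is not given in the sources used here, so counts of an antisense RNA and of the HOX exons it overlaps cannot be told apart with certainty.

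Of 11 cofactor genes, 8 were tested and 3 were called higher, none lower, by edgeR and by DESeq2, with 0 lower at an unadjusted p under 0.05. Over all 15104 genes tested, edgeR called 14.7% higher and 13.6% lower, and DESeq2 called 1668 higher and 1553 lower. MEIS3, a cofactor in hindbrain development, had 41.6 and 36.1 normalized counts in PANC-1 and 90.6 and 104 in PZT-2 (log2 fold change 1.32, SE 0.205, adjusted p = 0.00516). MEIS2, a partner of HOX and PBX proteins, had 81.0 and 56.0 in PANC-1 and 180.2 and 119 in PZT-2 (1.14, SE 0.269, adjusted p = 0.0228). TGIF1, a related homeodomain repressor, had 927 and 839.5 in PANC-1 and 1270.3 and 1262 in PZT-2 (0.52, SE 0.0720, adjusted p = 0.00348). In all 3 genes the lines did not overlap, and MEIS2 was no longer called without PZT-2 replicate 1 (adjusted p = 0.107). PBX2, the PBX gene with the most counts, had 1251 and 1098 in PANC-1 and 1084 and 1009.6 in PZT-2 and was not called (-0.16, adjusted p = 0.201). MEIS1 and PKNOX2 had no value.

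Of 20 genes of retinoic acid handling and of the CDX family, 12 were tested and 1 was called. Over all genes tested, 14.7% were called higher and 13.6% lower. CYP26B1, which degrades retinoic acid, had 177 and 168 normalized counts in PANC-1 and 299.97 and 299.6 in PZT-2 (log2 fold change 0.80, SE 0.104, adjusted p = 0.00284). CRABP2, which carries retinoic acid in the cell and had the most counts of this list, was not called (-0.09, adjusted p = 0.352), nor were the receptors RARA, RARG, RXRA and RXRB. None was called lower by edgeR or DESeq2, with 0 lower at an unadjusted p under 0.05.

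All 13 genes of a chosen list of trithorax genes and other chromatin regulators were tested. The list does not hold every trithorax gene. The trithorax group keeps HOX clusters active. KMT2A, the histone methyltransferase best known for it, had 3476 and 3605 normalized counts in PANC-1 and 3084 and 2478 in PZT-2 and was called lower (log2 fold change -0.35, SE 0.102, adjusted p = 0.0464). HCFC1, which had the most counts of the list, was called lower as well (-0.25, adjusted p = 0.0209). KMT2A was called in only 9 of 14 alternatives, and its value was -0.20 without PZT-2 replicate 2 (adjusted p = 0.191). DPY30 (0.65, adjusted p = 0.00314) and PSIP1 (0.34, adjusted p = 0.0370) were called higher, PSIP1 in only 7 of 14 alternatives, and the other 9 were not called. Over the 3 lists of partners and regulators, 6 of 33 tested genes were called higher and 2 lower, against 14.7% and 13.6% of all genes tested.

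The 10 protein-coding genes tested that lie nearest to each side of each cluster were compared with the members beside them. Of the 20 neighbours of HOXC, 9 were called lower and 3 higher, with a median log2 fold change of -0.21, against 13.6% lower and 14.7% higher of all genes tested and 114 lower and 82 higher of the 772 on chromosome 12. The lower genes were ATP5MC2, PCBP2, PRR13, SP1 and AAAS beyond HOXC13 and CBX5, HNRNPA1, COPZ1 and BLOC1S1 beyond HOXC4, and the higher genes were ZNF385A, ITGA5 and METTL7B beyond HOXC4. The nearest neighbour on each side, CALCOCO1 and SMUG1, was not called (-0.08 and -0.06, adjusted p = 0.648 and 0.605). Among the neighbours of HOXB, 4 were called lower (CDK5RAP3, LRRC46, CALCOCO2 and SNF8) and 2 higher (UBE2Z and NGFR), and among those of HOXA 1 lower (OSBPL3) and 4 higher (NFE2L3, TAX1BP1, CREB5 and MTURN).

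Beside HOXD, 5 of 20 neighbours were called lower (LNPK, ATP5MC3, ATF2, GPR155 and NFE2L2) and 2 higher (CHN1 and WIPF1). Of all genes tested, 13.6% were called lower and 14.7% higher. GPR155 had 31 and 29 counts in PANC-1 and none in either PZT-2 library, so it met the count filter through PANC-1 alone. LNPK, the neighbour nearest to HOXD13, differed by -0.91 on the log2 scale (adjusted p = 0.00460), and MTX2, nearest to HOXD1, by -0.05 (adjusted p = 0.759). The neighbours with the most counts were HNRNPA2B1 for HOXA, NFE2L1 for HOXB, HNRNPA1 for HOXC and HNRNPA3 for HOXD, of which only HNRNPA1 was called (-0.19, adjusted p = 0.0223).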

How the data were processed

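Stranded mRNA libraries of PANC-1 (n = 2) and PZT-2 (n = 2) were sequenced on a NextSeq 500. The authors trimmed reads with Trim Galore 0.4.1, obtained estimated counts and TPM of RefSeq transcripts with kallisto 0.43.0 and compared the lines with sleuth 0.29.0. The labels name hg19. Columns of the deposited tables with sleuth's effects, p-values and q-values were not used.

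The deposited estimated counts carry a factor for each library (1.16, 0.935, 1.03 and 1.01), which was undone. In single-transcript genes, the share of values from 0.5 to 30 lying within 0.01 of a whole number then rose to between 41.0% and 42.2%, against 0.915% to 2.39% as deposited. TPM were used as deposited. Transcripts were named by the table (27049) or through a RefSeq annotation of GRCh38.p14 (3925), which also gave chromosomes and neighbours. Unnamed were 103, with 0.0466% of counts. All 39 members matched that annotation, 20 its promoter table and 28 member transcripts GENCODE 29.

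Counts were summed per gene and rounded. Genes reaching 5 counts in 2 or more libraries entered edgeR's quasi-likelihood test (edgeR 4.0.16 under R 4.3.3, scaled by TMM) and were called at a Benjamini-Hochberg adjusted p under 0.05 over all genes. Standard errors (SE) are not given by this test. They were derived as the absolute log2 fold change divided by the square root of the test's F statistic. Normalized counts are scaled to the mean library. The replicates differed by 5.81 (PANC-1) and 3.37 (PZT-2) times the variance of counting alone. Exact intervals are conditional binomial ones. The code was tested on simulated data, where edgeR made more false calls than its nominal share when the spread was drawn gene by gene, so calls near the threshold (such as HOXC4 and HOXD4) are less sure than their adjusted p states.

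Members and lists were chosen with earlier results of these data known. A member of the HOXA cluster and a cofactor are counted but not reported here. The other members are all accounted for, those averaging 20 or more normalized counts, or called, with all values, the others by range. Of other lists, called genes and those with most counts are named. CALCOCO1, SMUG1, LNPK and MTX2 as nearest neighbours, and the uncalled noncoding RNAs given with values, were picked after their values were seen. Alternatives were RLE factors, DESeq2 1.42.0, limma-trend (limma 3.58.1) on TPM, other filters, the deposited values, another dispersion estimate, the most abundant transcript alone, a 2-fold minimum, a replicate block, each library left out and, added after the data were seen, transcripts named through RefSeq.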

Additional observations from a re-analysis of the deposited data

How the results depend on the processing

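The number of HOX genes called lower was 6, and 3 without PZT-2 replicate 1, with a range of 3 to 5 over the libraries left out. It was 4 with DESeq2, 2 with the most abundant transcript alone (HOXC10 and HOXC13) and 1 with a further 2-fold minimum. That 1 was HOXD4, which met the count filter through PANC-1 alone. The number called higher was 0, and 1 with at least 10 counts in all 4 libraries (HOXB8) and without PANC-1 replicate 1 (HOXB9) or 2 (HOXB8), a range of 0 to 1 with a library left out. With the replicate block, 4 members were called lower, since HOXC4 (adjusted p = 0.0579) and HOXD4 (0.0828) missed the threshold, and 3729 of all genes were called against 4275. Deviations of equally numbered libraries correlated at r = -0.0209 across genes, and with 2 pairs the numbers are not taken to pair the libraries. The HOXC6 and HOXC11 calls were lost with the most abundant transcript alone (adjusted p = 0.0858 and 0.0534), as were those of HOXC4 (0.679) and HOXD4 (0.109). HOXD4 could not be fitted with at least 10 counts in all 4 libraries or without either PANC-1 library. Over the 15 alternatives other than the 2-fold minimum HOXC10 ran from -0.66 to -0.55 and HOXC13 from -0.55 to -0.48.

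Partners and regulators called higher came to 3 with the most abundant transcript alone, and those called lower to 1 with limma-trend on log2(TPM + 1), on log2(TPM + 0.1) and with the deposited values, to 0 with the most abundant transcript alone and to 0 to 5 with a library left out. For noncoding RNAs called lower the count was 3 with limma-trend at either pseudocount and 0 with the most abundant transcript alone. Neighbours called higher came to 7 with DESeq2 and with the most abundant transcript alone, and neighbours called lower to 8 with the latter. With a library left out they ran from 4 to 12 and from 6 to 19, lowest without PZT-2 replicate 2. Of all genes, 2456 and 2019 were called when PZT-2 replicate 1 or 2 was left out, and 2123 with the most abundant transcript alone, against 4275. PSIP1 (-0.96) and SP1 (0.46) changed sign with the most abundant transcript alone. Rescaled to the same total per library, summed TPM was 21.0 for HOXA in PZT-2, 393 in PANC-1 and 427 in PZT-2 for HOXB, and 216 in PANC-1 and 172 in PZT-2 for HOXC. The cause of these changes was not tested. Depth limits HOXA6, HOXA11, HOXC5 and HOXD4, each with at most 21 counts in a library.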
